A study of Mus musculus with 16 samples.

Results

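Fc receptors and the signalling proteins behind them were followed as 10 genes in embryonic mouse hearts that had lost alleles of Ing4 and Ing5. The 10 genes were the receptors Fcrls, Fcgr1, Fcgr2b, Fcgr3 and Trem2, the adaptors Fcer1g and Tyrobp, and the enzymes Syk, Inpp5d and Ptpn6. They were found by symbol among 27179 gene IDs. Fcrls was picked on its CPM, which was higher in Ing4+/- Ing5-/- than in wild-type hearts, so its difference there is a description with no test. The other 9 were listed as its relatives and partners.

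RNA was sequenced from hearts at embryonic day 10.5, with 16 libraries from 7 litters, 4 of each genotype. Ing4+/- Ing5-/- hearts had lost 1 Ing4 allele and both Ing5 alleles. Ing5-/- hearts had both Ing4 alleles, Ing4+/- hearts had both Ing5 alleles, and wild-type hearts had lost none. Ing4 and Ing5 encode related proteins that bind methylated histone H3 in histone acetyltransferase complexes. The sources used here give neither the design of the alleles nor the strain, and do not say whether a library held the heart of 1 embryo or a pool. P-values measure the spread between these libraries. Wild-type and Ing5-/- hearts never came from the same litter. The libraries labelled Ing5-/- 1 and 2 shared litter 1, and wild-type 2 and 3 shared litter 5. The main fit counted such littermates as separate.

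Fc receptors bind the constant part of antibodies, and many of them cannot signal alone. They pair with a small adaptor that carries an ITAM, a motif with tyrosines that Src family kinases phosphorylate. The kinase Syk docks there and passes the signal on, while phosphatases such as SHIP-1 (Inpp5d) and SHP-1 (Ptpn6) limit it. In adult tissue these genes mark macrophages and other myeloid cells, and the first macrophages of the embryo come from the yolk sac.

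The libraries held 19753100 to 35664331 counted reads, and 15785 genes passed the filter on low counts and were tested. Levels are given in CPM, the counts divided by library sizes that were adjusted with TMM factors; means carry the SD of 4 hearts, and differences are log2 fold changes ± SE from edgeR. Ing5, the targeted gene, had 19.2 to 25.1 CPM in Ing4+/- Ing5-/- hearts and 18.5 to 29.3 CPM in Ing5-/- hearts, against 33.8 to 42.3 CPM in Ing4+/- hearts and 28.9 to 36.9 CPM in wild-type hearts. The highest Ing5-/- value, 29.3 CPM, lay within the wild-type range and belonged to the library labelled Ing5-/- 1, so its Ing5 reads did not set this library apart from wild-type. Reads were summed over whole genes and say nothing of the protein left. Ing4 averaged 34.3 ± 1.90 CPM in Ing4+/- Ing5-/- hearts and 51.0 ± 7.31 CPM in Ing5-/- hearts, against 34.1 ± 1.85 CPM in Ing4+/- hearts and 39.5 ± 7.60 CPM in wild-type hearts. The library labelled Ing5-/- 1 also stood apart on the principal components, as did Ing4+/- Ing5-/- 2 and Ing4+/- 4. Cardiomyocyte markers summed to 22000 to 37150 CPM across the hearts, with the lowest value in an Ing5-/- heart.

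The windows before the starts of several of these genes hold the same 6 letters. GAGGAA, or TTCCTC on the other strand, is the core bound by PU.1 (Spi1), a transcription factor of myeloid cells. It was searched on both strands in the 250 bases before each RefSeq start (GRCm38.p6). It was found in 6 of the 9 genes with an entry, Fcrls, Fcgr1, Fcgr3, Trem2, Syk and Inpp5d, and in 25.9% of 27025 genes with an entry. Fcgr2b, Fcer1g and Ptpn6 had no match in this window. In Syk only the second of its starts had a match. The sequences below were chosen to show where the letters lie, and the capitals mark them. The first 3 are the 100 bases before the start, read 5′ to 3′ on the gene's strand, and the last 2 are stretches of 30 bases around the match.

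Fcgr1, chr3:96293970-96294069, minus strand: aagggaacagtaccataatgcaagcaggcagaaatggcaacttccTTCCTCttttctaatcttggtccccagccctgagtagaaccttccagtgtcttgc

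Trem2, chr17:48346301-48346400, plus strand: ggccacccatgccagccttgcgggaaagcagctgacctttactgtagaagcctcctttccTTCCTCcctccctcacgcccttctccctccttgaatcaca

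Inpp5d, chr1:87620212-87620311, plus strand: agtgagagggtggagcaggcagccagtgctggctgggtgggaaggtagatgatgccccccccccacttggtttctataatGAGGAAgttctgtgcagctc

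Fcgr3, chr1:171059404-171059433, minus strand: ggttaagcaagagagtccatttccTTCCTC

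Fcrls, chr3:87263651-87263680, minus strand: caagtctgtaaaGAGGAAggacgtttgctt

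The match began 55 bases before the start in Fcgr1, 40 in Trem2, 20 in Inpp5d, 6 in Fcgr3 and 144 in Fcrls. A second Fcgr3 start has its match 15 bases before it. In Fcrls and Fcgr3 the start used lies inside the span of the gene given below, and the window overlaps annotated exons of the same gene, as do those of Fcgr2b, Fcer1g, Syk and Ptpn6. Other motifs were searched the same way. The AP-1 motif TGACTCA, found in 5.2% of genes, was in none of the 9. Nor was the E-box CACGTG, found in 6.9% of genes. The TATA box TATAAA, found in 14.3% of genes, was in Fcrls alone, where it did not overlap GAGGAA. A match describes the letters only, and no binding was measured.

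Per length, Syk was the most abundant of the 10 genes. Levels between genes are compared as RPKM, the CPM per kb of the deposited gene length. Over all 16 hearts Syk had 6.95 ± 0.58 RPKM (SD, n = 16), above every other member. Fcer1g followed with 2.74 ± 1.98, Ptpn6 with 2.64 ± 0.69 and Inpp5d with 1.86 ± 0.55. Tyrobp had 1.26 ± 1.25, Fcgr3 0.895 ± 0.724 and Fcrls 0.655 ± 0.594 RPKM. Trem2 had 0.269 ± 0.294, Fcgr1 0.226 ± 0.220 and Fcgr2b 0.0229 ± 0.0424. After Syk, neighbours in this order differed by less than the larger of their SDs, except Ptpn6 and Inpp5d.

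**Figure D1:**
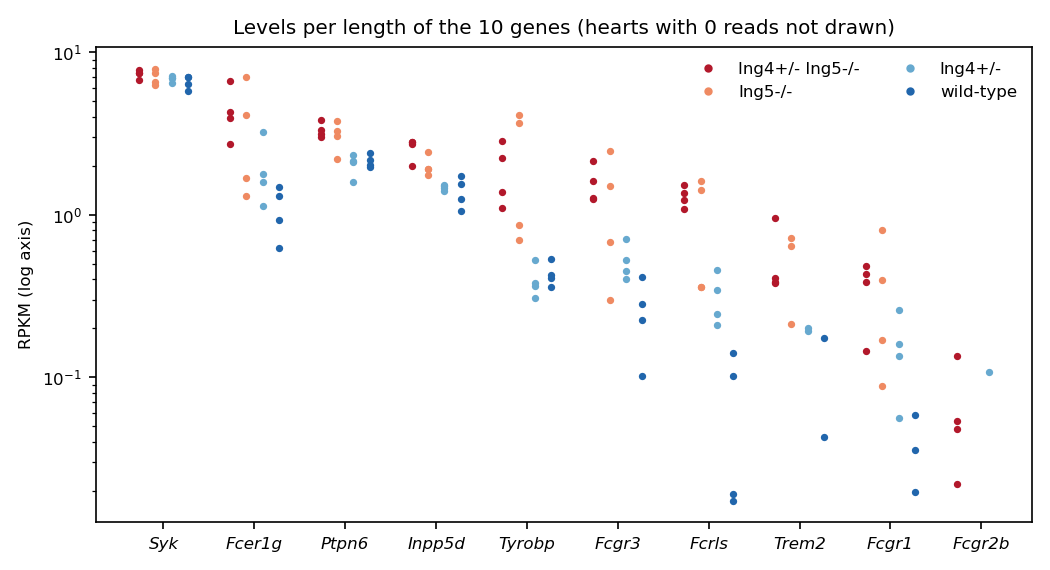
Level of each of the 10 genes in RPKM (log axis), in order of their means, 1 point per heart, coloured by genotype; hearts with 0 reads are not drawn. Syk sits near 6.95 in all genotypes, while the points of Tyrobp, Fcgr3, Fcrls, Trem2 and Fcgr1 spread more widely.

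The IgG receptors had few reads, and Fcgr1 and Fcgr3 rose in Ing4+/- Ing5-/- against wild-type hearts. Fcgr1, the high-affinity activating receptor for IgG (gene ID 14129, chromosome 3: 96282909 to 96293969, GRCm38), had 0.373, 1.25, 1.12 and 1.00 CPM in Ing4+/- Ing5-/- hearts. It had 2.08, 1.02, 0.436 and 0.230 CPM in Ing5-/- hearts, 0.414, 0.145, 0.667 and 0.349 CPM in Ing4+/- hearts, and 0.0928, 0, 0.152 and 0.0509 CPM in wild-type hearts. Every Ing4+/- Ing5-/- heart lay above every wild-type heart, while they overlapped the Ing4+/- hearts. Fcgr1 rose by 3.59 ± 0.82 on the log2 scale in Ing4+/- Ing5-/- against wild-type hearts (edgeR adjusted p = 0.0385). It was not called without any 1 of Ing4+/- Ing5-/- 2, 3 and 4, Ing4+/- 1 and the wild-type libraries (edgeR adjusted p up to 0.145). With limma-voom, or with the replicate or litter block, it was not called either. Wild-type hearts held 7 Fcgr1 reads in all, so the size of this change is loosely fixed.

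Fcgr3, a low-affinity activating IgG receptor that pairs with the product of Fcer1g (gene ID 14131, chromosome 1: 171051169 to 171065915), had 1.69, 2.91, 2.19 and 1.71 CPM in Ing4+/- Ing5-/- hearts. It had 3.32, 2.04, 0.912 and 0.402 CPM in Ing5-/- hearts, 0.714, 0.543, 0.958 and 0.610 CPM in Ing4+/- hearts, and 0.557, 0.138, 0.379 and 0.306 CPM in wild-type hearts. The Ing4+/- Ing5-/- hearts lay above all Ing4+/- and all wild-type hearts. Fcgr3 rose by 2.63 ± 0.54 against wild-type hearts (edgeR adjusted p = 0.0237), and its difference from Ing4+/- hearts, 1.59 ± 0.50, did not pass the threshold (adjusted p = 0.137). Against wild-type hearts Fcgr3 was not called without any 1 of Ing4+/- Ing5-/- 2 and 3 and wild-type 2, 3 and 4 (edgeR adjusted p up to 0.0968). Nor was it called there with limma-voom or the litter block.

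Fcgr2b, the inhibitory IgG receptor, which carries an ITIM in place of an ITAM (gene ID 14130, chromosome 1: 170960558 to 170976071), did not pass the filter on low counts. It had 1, 5, 2 and 2 reads in Ing4+/- Ing5-/- hearts, 0 reads in the 4 Ing5-/- hearts, 0, 0, 4 and 0 reads in Ing4+/- hearts and 0 reads in the 4 wild-type hearts. A count of 0 over the 4 wild-type libraries allows a level of up to 0.0309 CPM. Its transcripts shared 166 runs of 50 bases with those of Fcgr3, which is 10.2% of the Fcgr3 runs, so reads of the pair are uncertain where the counting could split them.

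Fcrls encodes an Fc receptor-like protein known as a mark of mouse microglia (gene ID 80891, chromosome 3: 87250736 to 87263765). It had 2.17, 2.45, 3.01 and 2.71 CPM in Ing4+/- Ing5-/- hearts. It had 3.19, 2.84, 0.714 and 0.718 CPM in Ing5-/- hearts, 0.489, 0.687, 0.417 and 0.915 CPM in Ing4+/- hearts, and 0.278, 0.0345, 0.0379 and 0.204 CPM in wild-type hearts. The Ing4+/- Ing5-/- hearts, among which the gene was picked, varied less than the Ing5-/- hearts, which fell into a high and a low pair. In a contrast of other hearts than those in which it was picked, Fcrls differed by 1.57 ± 0.50 between Ing5-/- and Ing4+/- hearts. This did not pass the threshold (edgeR adjusted p = 0.259). The hearts in which Fcrls was picked still entered the estimate of spread in that fit. The described difference between Ing4+/- Ing5-/- and wild-type hearts was 4.28 ± 0.62, and 3.29 with litter as a block.

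Trem2, a lipid-sensing receptor that signals through the product of Tyrobp (gene ID 83433, chromosome 17: 48346401 to 48352276), had 0.441, 0.415, 1.04 and 0.417 CPM in Ing4+/- Ing5-/- hearts. It had 0.781, 0.701, 0 and 0.230 CPM in Ing5-/- hearts, 0, 0.217, 0.208 and 0 CPM in Ing4+/- hearts, and 0.0464, 0, 0.190 and 0 CPM in wild-type hearts. The Ing4+/- Ing5-/- hearts again lay above all Ing4+/- and wild-type hearts. With at most 28 reads in a heart, the difference from wild-type hearts of 3.14 ± 1.07 did not pass the threshold (edgeR adjusted p = 0.223).

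**Figure D2:**
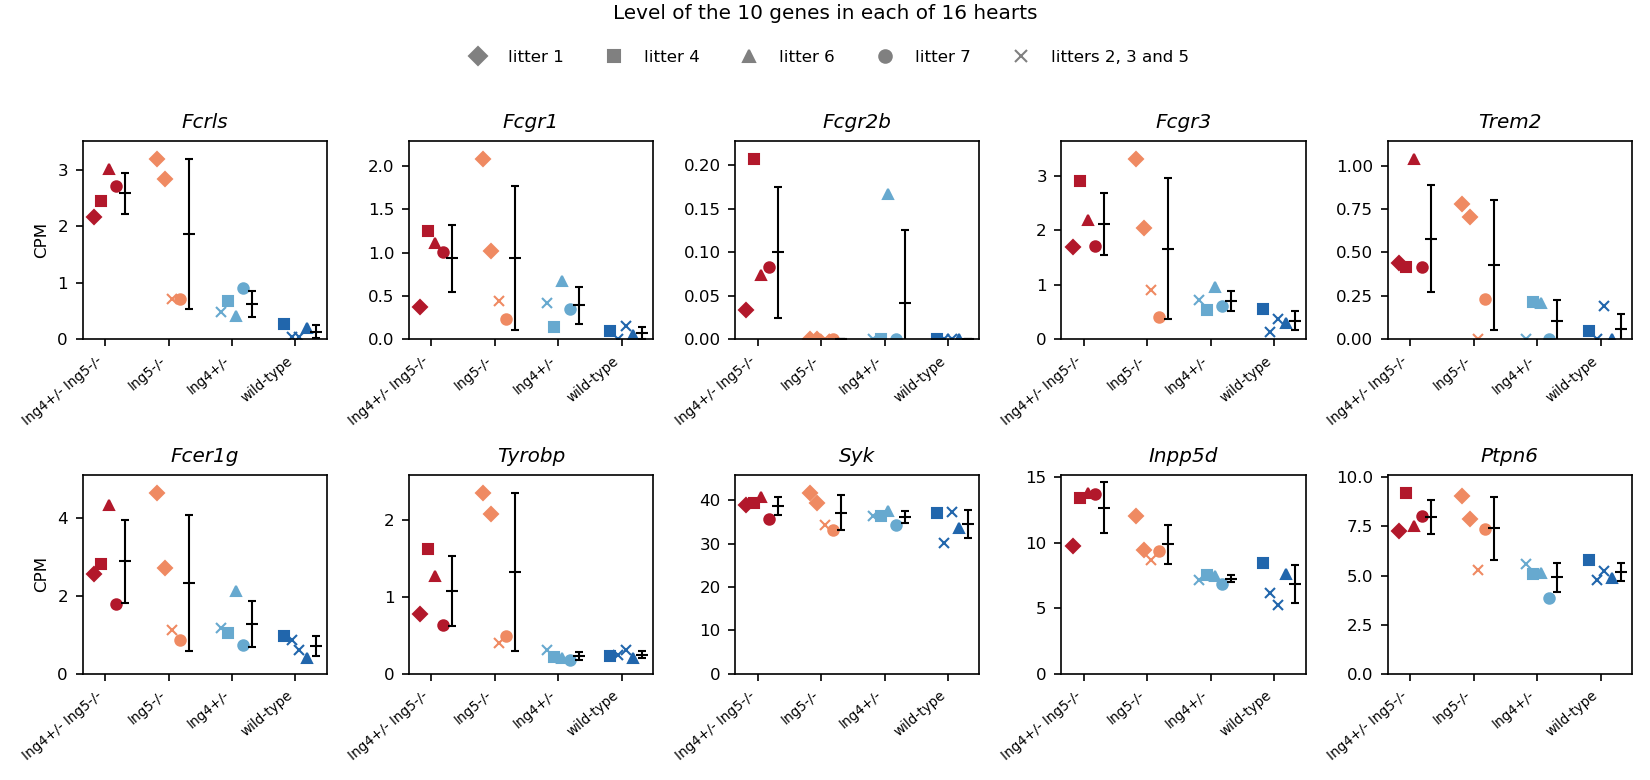
CPM of each of the 10 genes in the 16 hearts, by genotype, with the litter as the shape of the point; bars are mean ± SD (n = 4). The Ing5-/- hearts of litter 1 are the high ones of that genotype, for example 3.19 and 2.84 CPM of Fcrls against 0.714 and 0.718 CPM in the other 2.

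Both adaptors were higher in Ing4+/- Ing5-/- than in wild-type hearts, and neither difference passed the threshold. Fcer1g, the ITAM-bearing gamma chain shared by activating Fc receptors (gene ID 14127, chromosome 1: 171229572 to 171234349), had 2.58, 2.82, 4.35 and 1.80 CPM in Ing4+/- Ing5-/- hearts. It had 4.65, 2.71, 1.11 and 0.861 CPM in Ing5-/- hearts, 1.17, 1.05, 2.13 and 0.741 CPM in Ing4+/- hearts, and 0.974, 0.863, 0.607 and 0.407 CPM in wild-type hearts. All Ing4+/- Ing5-/- hearts lay above all wild-type hearts. The difference, 2.00 ± 0.49, missed the threshold (edgeR adjusted p = 0.0602).

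Tyrobp, which encodes the ITAM adaptor DAP12 (gene ID 22177, chromosome 7: 30413782 to 30417582), had 0.779, 1.62, 1.26 and 0.626 CPM in Ing4+/- Ing5-/- hearts. It had 2.34, 2.07, 0.397 and 0.488 CPM in Ing5-/- hearts, 0.301, 0.217, 0.208 and 0.174 CPM in Ing4+/- hearts, and 0.232, 0.242, 0.303 and 0.204 CPM in wild-type hearts. Ing4+/- and wild-type hearts covered nearly the same range, and all Ing4+/- Ing5-/- hearts and all hearts labelled Ing5-/- lay above it, the doubted library Ing5-/- 1 highest. The differences were 2.09 ± 0.57 for Ing4+/- Ing5-/- against wild-type (edgeR adjusted p = 0.109), 2.22 ± 0.58 for Ing4+/- Ing5-/- against Ing4+/- (0.0649) and 2.53 ± 0.57 for Ing5-/- against Ing4+/- hearts (0.0945).

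The ratio of the adaptors also varied. Per length, the level of Fcer1g was 1.51 to 2.98 times that of Tyrobp in Ing4+/- Ing5-/- hearts and 1.13 to 2.42 times in Ing5-/- hearts. It was 3.35 to 8.82 times in Ing4+/- hearts and 1.73 to 3.63 times in wild-type hearts. The Ing4+/- hearts therefore lay above the Ing4+/- Ing5-/- hearts and those labelled Ing5-/- in this ratio, which rests on 4 to 8 Tyrobp reads per Ing4+/- heart and was not tested.

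Among the enzymes, Inpp5d rose and Syk was nearly level. Inpp5d encodes SHIP-1, a lipid phosphatase of blood cells that limits signalling from these receptors (gene ID 16331, chromosome 1: 87620312 to 87720510). It had 9.79, 13.5, 13.8 and 13.7 CPM in Ing4+/- Ing5-/- hearts, 12.03, 9.44, 8.68 and 9.39 CPM in Ing5-/- hearts, 7.18, 7.56, 7.46 and 6.88 CPM in Ing4+/- hearts, and 8.49, 6.18, 5.23 and 7.64 CPM in wild-type hearts. Every Ing4+/- Ing5-/- heart and every heart labelled Ing5-/-, the doubted library Ing5-/- 1 among them, lay above every Ing4+/- and wild-type heart. Inpp5d rose by 0.89 ± 0.16 in Ing4+/- Ing5-/- against wild-type hearts (edgeR adjusted p = 0.00981) and by 0.80 ± 0.16 against Ing4+/- hearts (adjusted p = 0.0156). The difference from Ing5-/- hearts, 0.36 ± 0.16, did not pass the threshold (adjusted p = 0.719). Inpp5d lies 6.08 Mb from Ing5 on chromosome 1, so sequence carried along with the Ing5 allele and the loss of Ing5 cannot be told apart for this gene.

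Ptpn6 encodes SHP-1, a tyrosine phosphatase of blood cells (gene ID 15170, chromosome 6: 124720707 to 124738709). It had 7.25, 9.21, 7.51 and 8.01 CPM in Ing4+/- Ing5-/- hearts, 9.07, 7.91, 5.27 and 7.35 CPM in Ing5-/- hearts, 5.60, 5.06, 5.13 and 3.83 CPM in Ing4+/- hearts, and 5.80, 4.76, 5.23 and 4.89 CPM in wild-type hearts. The Ing4+/- Ing5-/- hearts lay above all Ing4+/- and wild-type hearts. Ptpn6 rose by 0.70 ± 0.17 against Ing4+/- hearts (edgeR adjusted p = 0.0487), and its difference from wild-type hearts was 0.63 ± 0.17 (adjusted p = 0.102). With 1 library left out, the call against Ing4+/- hearts held only without the library labelled Ing5-/- 1 or without Ing5-/- 3. The edgeR adjusted p then ran from 0.021 to 0.162. Ptpn6 was also not called there with no filter, limma-voom, or the replicate or litter block. Ptpn6 lies 0.301 Mb from Ing4 on chromosome 6, and the part of sequence carried along with the Ing4 allele was not tested. Both groups of the comparison that passed were labelled Ing4+/-. The antisense gene Gm20531 overlaps Ptpn6, and the strand setting of the counting is not given in the sources used here.

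Syk, the kinase that docks on phosphorylated ITAMs (gene ID 20963, chromosome 13: 52582610 to 52648792), had 39.0, 39.4, 40.8 and 35.6 CPM in Ing4+/- Ing5-/- hearts. It had 41.7, 39.3, 34.3 and 33.2 CPM in Ing5-/- hearts, 36.5, 36.4, 37.6 and 34.2 CPM in Ing4+/- hearts, and 37.1, 30.2, 37.3 and 33.6 CPM in wild-type hearts. All genotypes overlapped. The difference between Ing4+/- Ing5-/- and wild-type hearts was 0.16 ± 0.09 (edgeR adjusted p = 0.502).

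Counted over the 8 tested genes other than Fcrls, Fcgr1, Fcgr3 and Inpp5d rose in Ing4+/- Ing5-/- against wild-type hearts and none fell, while 0.855% of all tested genes were called in either direction and 0.697% higher. All 8 had positive values, with a median of 2.05 beside 0.00274 over all genes, and 7 had an unadjusted p under 0.05 (11.4% of all genes). For 7 of the 8 every Ing4+/- Ing5-/- heart lay above every wild-type heart, which held for 5.45% of all genes. Since Fcrls was picked in this comparison and the others were listed with its result known, these counts describe the chosen genes only. Trem2 and Tyrobp passed the filter on low counts only through Ing4+/- Ing5-/- and Ing5-/- hearts, and no wild-type heart reached its level for Fcgr1. Their direction was thereby partly set, and counts and medians over the 8 are no support for a difference, here or in the comparisons that follow. With litter as a block in the model none of the 8 was called, and Inpp5d had an adjusted p of 0.344. Without wild-type 3 none was called either, without wild-type 2 only Inpp5d was, and without the library labelled Ing5-/- 1 there were 5. Over all genes the fits named here called 15, 38, 55 and 315, in that order.

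Against Ing4+/- hearts, Inpp5d and Ptpn6 rose in Ing4+/- Ing5-/- hearts and none of the 8 fell, beside 1.16% of all genes called. All 8 values were positive, with a median of 1.21 beside -0.00128 over all genes, and 6 had an unadjusted p under 0.05 (13.9% of all genes). For 5 of the 8 the groups did not overlap, with the Ing4+/- Ing5-/- hearts above, beside 5.22% of all genes. With litter as a block neither was called (Inpp5d edgeR adjusted p = 0.0517, Ptpn6 0.0698), and without Ing4+/- Ing5-/- 2 there were 0. Over all genes those fits called 78 and 67.

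In Ing5-/- against wild-type hearts, which shares the wild-type hearts with the first comparison, edgeR called none of the 8 genes (0.0127% of all genes). DESeq2 called 3, Fcgr1, Fcgr3 and Tyrobp, where it called 43 of all genes, and limma-voom called 0. With edgeR 7 of the 8 had an unadjusted p under 0.05 beside 9.59% of all genes. The median was 1.99. Values were 3.61 ± 0.81 for Fcgr1, 2.28 ± 0.54 for Fcgr3, 2.72 ± 1.08 for Trem2, 1.70 ± 0.49 for Fcer1g, 2.40 ± 0.57 for Tyrobp, 0.53 ± 0.16 for Inpp5d, 0.52 ± 0.17 for Ptpn6 and 0.11 ± 0.09 for Syk. For 3 of the 8, Fcgr1, Tyrobp and Inpp5d, the Ing5-/- hearts lay above all wild-type hearts (2.48% of all genes).

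The other comparisons gave no call among these genes with edgeR. Between Ing5-/- and Ing4+/- hearts 0 of 9 genes, Fcrls included, were called (0.0697% of all genes). Of the 9, 5 had an unadjusted p under 0.05 (12.3% of all genes). DESeq2 called 1, Tyrobp, where it called 109 of all genes, and limma-voom called 0. For Tyrobp and Inpp5d the Ing5-/- hearts lay above all Ing4+/- hearts, as did 2.76% of all genes. Between Ing4+/- Ing5-/- and Ing5-/- hearts 0 of 8 were called (0.00634% of all genes) and 1, Inpp5d, had an unadjusted p under 0.05 (6.63% of all genes). Between Ing4+/- and wild-type hearts 0 of 8 were called (0% of all genes) and 1, Fcgr1, had an unadjusted p under 0.05 (4.73% of all genes). In both of these DESeq2 and limma-voom also called 0. The interaction, which asks whether the loss of Ing5 acted differently with 1 Ing4 allele lost, had 0 of 8 called by each tool (0% of all genes with edgeR). Only Fcgr1 of the 8 had an unadjusted p under 0.05 there (5.88% of all genes), with an interaction of -2.37 ± 1.06 (edgeR adjusted p = 0.842).

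**Figure D3:**
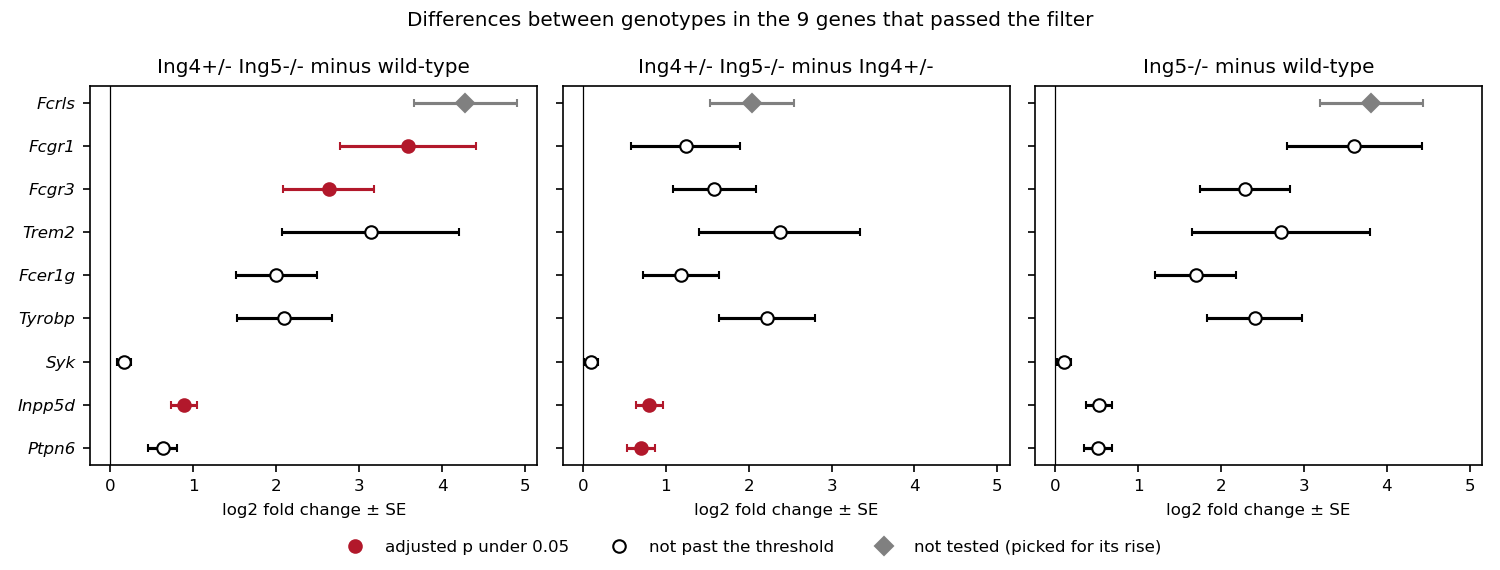
Log2 fold change ± SE from edgeR of the 9 genes that passed the filter, in Ing4+/- Ing5-/- minus wild-type, Ing4+/- Ing5-/- minus Ing4+/- and Ing5-/- minus wild-type hearts; red points passed the threshold and Fcrls is drawn without a test. The receptors and adaptors lie between 1.18 and 4.28, while Syk stays between 0.10 and 0.16.

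The Ing5-/- hearts differed by litter. The library labelled Ing5-/- 1 and Ing5-/- 2, both of litter 1, were high, and Ing5-/- 3 of litter 2 and Ing5-/- 4 of litter 7 were low. The library labelled Ing5-/- 1 ranked first of the 16 hearts for 6 of the 9 genes, and the share over all genes was not counted. It stood apart on the principal components, so this count is not taken as particular to these genes. For Inpp5d, Fcgr3, Trem2 and Tyrobp, and for Fcrls, which was picked on such values, the 4 Ing4+/- Ing5-/- hearts and the 2 Ing5-/- hearts of litter 1 lay above all the other 10. This held for 0.469% of all genes. The order was noticed in the data and is a description.

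Comparing littermates removes differences between litters. The summed level of the 5 receptors and 2 adaptors was 11.7 CPM in the Ing4+/- Ing5-/- heart of litter 4, against 2.86 CPM in its Ing4+/- and 2.18 CPM in its wild-type littermate. It was 13.0 CPM in the Ing4+/- Ing5-/- heart of litter 6, against 4.75 CPM in the Ing4+/- and 1.17 CPM in the wild-type heart. In litter 7 it was 8.35 CPM in the Ing4+/- Ing5-/- heart, against 2.93 CPM in the Ing5-/- and 2.79 CPM in the Ing4+/- heart. In litter 1 the order was the other way, with 8.07 CPM in the Ing4+/- Ing5-/- heart against 16.4 and 11.4 CPM in the Ing5-/- hearts.

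Leaving out Fcrls, all 8 tested genes were higher in the Ing4+/- Ing5-/- than in the wild-type heart in both litters that held them, which was so for 30.5% of all genes. All 8 were higher than in the Ing4+/- heart in the 3 litters that held that pair, as were 17.2% of all genes. Against Ing5-/- littermates, 8 of 8 were higher in litter 7 (51.1% of all genes) and 0 of 8 in litter 1 (48.45% of all genes). Genes of 1 heart share that heart, so these counts are not independent.

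**Figure D4:**
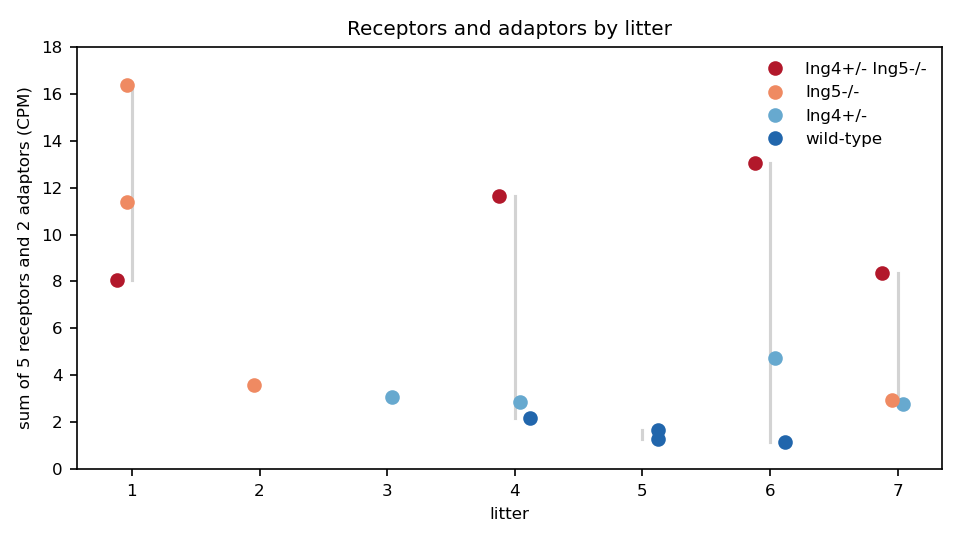
Summed CPM of the 5 receptors and 2 adaptors in each heart, by litter, coloured by genotype; grey lines join the hearts of a litter. The Ing4+/- Ing5-/- heart is the highest of litters 4, 6 and 7 (11.7, 13.0 and 8.35 CPM) and the lowest of litter 1 (8.07 CPM).

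Across the 16 hearts the genes moved together. The Pearson r of the 36 pairs of log2 CPM values ranged from 0.538 to 0.942 with a median of 0.779, and was highest for Fcgr1 and Fcgr3. After the genotype means were taken away the median was 0.589. The points share libraries and depth, so these values are descriptions. The 8 genes outside the list whose log2 CPM was most like the mean profile of the 9 were Stfa1 (r = 0.963), Msr1, C1qa, Cyth4, Laptm5, Cx3cr1, Fcna and Ccl6 (0.916). C1qa, a chain of complement C1q, had a mean level of 2.52 CPM in Ing4+/- Ing5-/-, 1.64 CPM in Ing5-/-, 0.361 CPM in Ing4+/- and 0.157 CPM in wild-type hearts. Msr1, a scavenger receptor, had 1.39 CPM in Ing4+/- Ing5-/-, 0.760 CPM in Ing5-/-, 0.134 CPM in Ing4+/- and 0.0348 CPM in wild-type hearts.

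Most markers of macrophages were higher in Ing4+/- Ing5-/- than in wild-type hearts. Of 26 macrophage markers 24 were tested, and 8 rose in Ing4+/- Ing5-/- against wild-type hearts and none fell, beside 0.697% of all genes called higher. Their median was 2.13, and 20 of the 24 had positive values. Markers with few wild-type reads, such as C1qa (mean 0.157 CPM), could pass the filter through genotypes where they are high. These counts and this median are therefore no support for a difference. The number called became 14 with only the groups compared, 2 with limma-voom and 1 with litter as a block. Over all genes those fits called 465, 78 and 15. The number of markers called was 2 to 4 without any 1 of the wild-type libraries or of Ing4+/- Ing5-/- 2, 3 and 4. Those fits called 38 to 80 of all genes. Their summed level was 155 to 201 CPM in Ing4+/- Ing5-/- hearts, 124 to 194 CPM in Ing5-/- hearts, 135 to 147 CPM in Ing4+/- hearts and 128 to 145 CPM in wild-type hearts. The sum is weighted to the most abundant markers, and its mean was 183 CPM in Ing4+/- Ing5-/- and 135 CPM in wild-type hearts. Only Cd163 had 0 reads in a genotype, the Ing4+/- hearts. In bulk hearts, more cells of a type and more RNA per cell cannot be told apart, and the part of macrophage number in the results above was not tested.

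Markers of other blood cells also differed between the genotypes. Their mean sums were highest in Ing4+/- Ing5-/- hearts for neutrophils, platelets, erythroid cells and blood progenitors, and the ranges overlapped those of Ing5-/- hearts. The 10 neutrophil markers summed to 6.93 to 23.0 CPM in Ing4+/- Ing5-/-, 3.76 to 8.32 CPM in Ing5-/-, 1.69 to 3.87 CPM in Ing4+/- and 1.71 to 3.34 CPM in wild-type hearts, with Ly6g at 0 reads in all. The 11 megakaryocyte and platelet markers summed to 154 to 282 CPM in Ing4+/- Ing5-/-, 103 to 298 CPM in Ing5-/-, 86.1 to 177 CPM in Ing4+/- and 89.7 to 144 CPM in wild-type hearts. The erythroid markers summed to 7820 to 48800 CPM in Ing4+/- Ing5-/-, 5626 to 33440 CPM in Ing5-/-, 4836 to 19590 CPM in Ing4+/- and 8903 to 11840 CPM in wild-type hearts. The 9 blood progenitor markers summed to 257 to 374 CPM in Ing4+/- Ing5-/-, 209 to 323 CPM in Ing5-/-, 232 to 283 CPM in Ing4+/- and 243 to 261 CPM in wild-type hearts. Of the 10 neutrophil markers 3 were tested. Of these 3, 2 were called higher against wild-type hearts (0.697% of all genes) and 1 against Ing4+/- hearts (1.16% of all genes called). No platelet, erythroid or blood progenitor marker was called higher in either comparison, and 1 progenitor marker was called lower against Ing4+/- hearts. The limit of the filter given for macrophage markers applies here too. The part of these cells in the results was not tested. The 9 mast cell markers summed to 73.9 to 92.4 CPM in Ing4+/- Ing5-/-, where their mean was highest, 58.0 to 77.6 CPM in Ing5-/-, 71.8 to 80.6 CPM in Ing4+/- and 69.3 to 80.6 CPM in wild-type hearts. Of these, Fcer1a and Tpsb2 had 0 reads in all hearts, as did Cd3d and Cd3e of T cells and Ms4a1 and Pax5 of B cells.

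Of 111 other genes of the pathway in 6 lists 71 were tested, and 1 rose in Ing4+/- Ing5-/- against wild-type hearts and none fell, a share near the 0.855% of all genes called. It was Rac2, a small GTPase of blood cells that acts downstream of Syk, with 5.33 ± 1.68 CPM in Ing4+/- Ing5-/-, 3.26 ± 1.36 CPM in Ing5-/-, 1.65 ± 0.71 CPM in Ing4+/- and 1.75 ± 0.27 CPM in wild-type hearts. Rac2 rose by 1.60 ± 0.33 against wild-type (edgeR adjusted p = 0.0244) and by 1.69 ± 0.33 against Ing4+/- hearts (adjusted p = 0.0157). Against wild-type hearts it was not called with litter as a block, with limma-voom, or without any 1 of Ing4+/- Ing5-/- 2 and 3 and the 4 wild-type libraries. Against Ing4+/- hearts it was not called without Ing4+/- Ing5-/- 2 or without any 1 of Ing4+/- 1, 2 and 4.

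By role, the lists differed in their median for Ing4+/- Ing5-/- against wild-type hearts. The 8 tested of 23 other receptors that pair with Fcer1g or Tyrobp had a median of 1.34, all 8 were positive, and none was called. Some of these, such as Clec1b and Gp6, are also platelet markers. Other Fc receptors had 4 tested of 14 and a median of 0.29, and other ITAM adaptors 1 tested of 7. The 13 tested of 14 Src, Tec and Syk family kinases had a median of -0.0028, the 28 tested of 29 scaffolds and effectors 0.13, and the 17 tested of 24 ITIM receptors and inhibitors 0.07. Apart from Rac2, none of these passed the threshold. Genes with few reads could pass the filter through genotypes where they are high, so these medians are no support for a difference. With only the groups compared, the number called higher became 1 for other Fc receptors, 2 for the pairing receptors, 4 for scaffolds and effectors and 1 for ITIM receptors and inhibitors. That fit called 465 of all genes in either direction, beside 135 in the main fit.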

How the data were processed

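Gene-level read counts, raw and as whole numbers, were deposited in 1 table of the series and in 16 single-sample tables equal to it. Total RNA went into stranded libraries, per the labels. The gene length in bases (other) that the authors deposited was used for RPKM. The submitters' processing notes name bcl2fastq, featureCounts and mm10, and no source used here states the aligner, annotation or versions. Of 27179 gene IDs 93.0% matched a symbol, and the rest took 2.08% of reads.

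The tools were edgeR 4.0.16 (main), limma 3.58.1 and DESeq2 1.42.0 in R 4.3.3. The filter asked for about 0.38 CPM in 4 libraries and kept 15785 genes. TMM factors were 0.967 to 1.08 and the biological coefficient of variation was 0.159. One robust quasi-likelihood fit of 4 genotype means used all 16 libraries, and calls are at a Benjamini-Hochberg adjusted p below 0.05 across the genes tested. The SE is the log2 fold change divided by the square root of F. The pipeline was tested on simulated data. The limit from a count of 0 (3 reads) covers counting error only.

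The 10 genes and all lists were chosen with earlier results of these data known. Named were all 10 genes, up to 4 called genes of each pathway list, and the 8 genes most like the mean profile. Alternatives were DESeq2 size factors, 2 other filters, fits of only the groups compared, DESeq2 and limma-voom as tests, replicate and litter blocks, and leaving out each library. Added after seeing the data were fits without the 3 libraries that stood apart (components of 25.3, 14.7 and 12.3% of the variance) and without litter 1. Residuals of same-numbered libraries correlated above 0.1 in 5 of 24 pairs, so numbers were not taken as pairs. Promoter windows came from RefSeq (GRCm38.p6), without an entry for Tyrobp.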

Additional observations from a re-analysis of the deposited data

Results flagged for a closer look

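In groups of 4, a heart far from the other 3 was found in 3 of 38 groups of gene and genotype tested, and chance alone gives about 1 in 20. Fcgr2b had 0.167 CPM in Ing4+/- 3 and 0 in the other Ing4+/- hearts, which is a matter of 4 reads. Trem2 had 1.04 CPM in Ing4+/- Ing5-/- 3, against 0.415 to 0.441 CPM in the other hearts of that genotype. Inpp5d had 9.79 CPM in Ing4+/- Ing5-/- 1, the one of litter 1, against 13.5 to 13.8 CPM in the others.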

How the results depend on the processing

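For Ing4+/- Ing5-/- against wild-type hearts the number of the 8 genes called was 3, and became 6 with only the groups compared, 6 with DESeq2, 1 with limma-voom, 0 with litter as a block and 6 without litter 1. Over all genes the main fit called 135, and those fits 465, 325, 78, 15 and 355 in the same order. Leaving out 1 library gave 0 to 5 of the 8. With the replicate number as a block there were 3, with Fcer1g (adjusted p = 0.0304) in place of Fcgr1 (0.0521). For Ing4+/- Ing5-/- against Ing4+/- hearts it was 2, and became 4 with only the groups compared, 1 each with no filter, limma-voom, the replicate block and without the 3 libraries that stood apart, 0 with litter as a block and 4 without litter 1. Over all genes the main fit called 183, and those fits 282, 175, 137, 189, 200, 78 and 434 in the same order. Leaving out 1 library gave 0 to 3 of the 8. DESeq2 called 3 for Ing5-/- against wild-type and 1 for Ing5-/- against Ing4+/- hearts, where edgeR called 0. Over all genes DESeq2 called 43 and 109 there, and edgeR 2 and 11. Leaving out 1 library gave 0 to 1 of these genes in each. In litter 1 lie 2 of the 4 Ing5-/- hearts; without it, Ing5-/- against Ing4+/- hearts gave negative log2 values for Fcgr1 (-0.25), Fcgr3 (-0.12), Fcer1g (-0.37) and Syk (-0.10), and Ing5-/- against wild-type hearts for Syk (-0.035). Syk in Ing5-/- against Ing4+/- hearts was also negative without the 3 libraries (-0.047), and ranged from -0.021, without the library labelled Ing5-/- 1, to 0.089 when 1 library was left out. None of these was called, and the cause was not tested. Over all recomputed fold changes, 923 kept their direction and side of the threshold, 41 lost a call, 30 gained one and 7 changed sign. The 3 others were of Fcrls, given without a test: 3.29 with litter as a block in place of 4.28 against wild-type for Ing4+/- Ing5-/- hearts, and 2.59 with that block and 2.43 without litter 1 in place of 3.81 for Ing5-/- hearts. Only values called in the main fit could lose a call. The 41 lost calls were all of Ing4+/- Ing5-/- hearts, for Fcgr1, Fcgr3 and Inpp5d against wild-type or Inpp5d and Ptpn6 against Ing4+/- hearts. Set beside all recomputed values, these losses look rarer than they were among those calls. Trem2, Fcgr1 and Fcgr2b rest on few reads, which limits their precision.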
